A study of Rattus norvegicus with 22 samples.

Results

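The comparison described here set the ipsilateral (right) against the contralateral (left) cortex of sham-operated rats, with the hemispheres paired by animal. The members were all samples labelled sham: 10 of the 22 samples of the series, from 5 of its 11 rats (numbered 82, 84, 86, 91 and 94), with 1 ipsilateral and 1 contralateral sample from each rat. All 11 rats were adult male Sprague-Daley rats (strain as spelled in the labels). They had electrodes for brain recording implanted on both sides of the skull, and some days later were anesthetized for a right frontal craniectomy. The other 6 rats then received a penetrating ballistic-like brain injury (PBBI), in which a probe was inserted through the opening and a balloon was inflated. In sham rats the probe was not inserted. Cortex was taken 24 h after the procedure. The sham group is therefore a baseline of anesthesia, implants on both sides and an opening of the skull on the right, and not an untouched brain. A further sham rat had been excluded by the study and was not analysed here. The operations were done in weekly groups, and week was not used here, so anything that both hemispheres of a rat shared, week and handling included, cannot be told apart from the rat itself.

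The cortex of a healthy rat is bilaterally organized, and the hemispheres of an animal share its blood, hormones, sleep and immune state. Injury to cortex is known to be followed within a day by chemokine and cytokine genes, by entry of neutrophils and monocytes from blood, by reactive changes of astrocytes and microglia, and by transient transcription of immediate early genes in neurons and vessels. A sham comparison shows how much of this is seen on the operated side without penetration, and how much the animals differ among themselves.

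Total counts were between 42085341 and 61682289 per sample, and 15747 genes passed the filter on low counts. Expression is given as CPM, the count of a gene scaled to the library total with TMM factors, which compares samples for a gene but not genes with each other. Of the 10 samples, 7 were closest to the other hemisphere of their own rat, and 1 sample each of rats 82, 86 and 94 was closer to a sample of another rat. The correlation of log2 CPM between the hemispheres of a rat was between 0.973 and 0.989, against 0.909 to 0.983 between rats on the same side. Cortical neuron markers summed to between 2716 and 3769 CPM over the 10 samples, and none of the 16 was at 0. Only 1818 identifiers have a name here, and nearly all of those names come from genes that the study called in comparisons that used these ipsilateral sham samples (the others from its sleep comparisons of either hemisphere), so the named genes are not a neutral sample of the genome.

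No side difference passed the test. With the rat as a block, 0 of 15747 genes (0%) had an adjusted p of at most 0.05 in edgeR's quasi-likelihood test, and the smallest adjusted p was 0.999. At an unadjusted p below 0.05 there were 238 genes, 1.51% of those tested. This is less than the share of 0.05 that evenly spread p-values would give, and the reason was not tested. Where 1.51% is set beside a list below, it is the share observed in this fit. Leaving out a rat also called 0 genes, with 276, 118, 151, 370 and 1228 at an unadjusted p below 0.05 without rat 82, 84, 86, 91 and 94 (smallest adjusted p 0.635, without rat 94). Limma voom without sample weights also called 0 genes (275 at an unadjusted p below 0.05), and voom with sample quality weights called 0 (2628 at an unadjusted p below 0.05, smallest adjusted p 0.206). DESeq2 called 1 gene. The median absolute side difference was 0.12 on the log2 scale, and for 95% of genes it was at most 0.43.

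The precision sets what this result can show. The 95% confidence interval of the side difference extended by a median of 0.39 to each side on the log2 scale and lay within 1 log2 unit of 0 on either side for 13862 genes (88.0%). Smaller differences, or differences of weakly expressed genes, were not detectable with 5 pairs. The biological coefficient of variation was 0.225 with the rat as a block and 0.384 without it.

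Consistency over the 5 rats was read against the whole table. Ipsilateral CPM was higher in 5 of 5 rats for 275 genes (1.75%) and lower in 5 of 5 for 387 genes (2.46%). Named genes belonged to these groups in 32 and 60 cases out of 1545 tested, and none of them passed the adjusted threshold. For a single gene, the exact sign-flip permutation test over 5 pairs (two-sided) cannot go below p = 0.0625.

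The gene that DESeq2 called has no name here. ENSRNOG00000039649 had ipsilateral CPM of 4.31, 6.74, 10.6, 8.87 and 4.76 in rats 82, 84, 86, 91 and 94, and contralateral CPM of 1.78, 4.38, 4.73, 5.56 and 1.68 in the same order. It was higher on the ipsilateral side in 5 of 5 rats, although the ranges of the sides overlapped. The side difference was 1.03 on the log2 scale (SE 0.18, 95% confidence interval 0.63 to 1.44, n = 5 pairs), with an adjusted p of 0.00305 in DESeq2 and 0.999 in edgeR. ENSRNOG00000048910, also unnamed, had the next smallest p among unnamed identifiers that were higher ipsilaterally. Its ipsilateral CPM lay between 0.497 and 0.593 and its contralateral CPM between 0.158 and 0.262, so the sides did not overlap (adjusted p 0.999 in edgeR).

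Among named genes the smallest side p belonged to Aurkb, the kinase of the chromosomal passenger complex in mitosis. Its contralateral CPM was 0.733, 1.81, 2.00, 2.42 and 2.53 in rats 82, 84, 86, 91 and 94, and its ipsilateral CPM was 0.454, 0.736, 0.944, 1.44 and 0.974. Every rat had the lower value ipsilaterally, and the ranges overlapped because rat 82 was low on both sides. The difference was -1.04 (log2, SE 0.22) with an unadjusted p of 0.000881 and an adjusted p of 0.999 in edgeR, and the exact sign-flip p was 0.0625. The other mitosis and replication genes did not share this. Of 20 tested, Aurkb included, 1 had an unadjusted p below 0.05 in edgeR, against 1.51% of all genes. Ipsilaterally 8 were higher and 12 lower, and the median was -0.09 against 0.01 over all genes tested.

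The remaining named genes at the top of the side ranking had varied roles. Olfm4, which encodes the secreted glycoprotein olfactomedin 4, had a mean of 4.05 ± 0.929 CPM ipsilaterally and 2.70 ± 0.535 contralaterally (SD, n = 5), a difference of 0.58 (log2, SE 0.16). Figf, the gene of vascular endothelial growth factor D, had 1.15 ± 0.443 against 0.587 ± 0.392 CPM. Igf2bp2, an RNA-binding protein gene, had 0.350 ± 0.140 against 0.749 ± 0.334 CPM. Mlip, whose product binds lamin, had 36.5 ± 7.02 against 27.5 ± 7.10 CPM. For each of these 4 genes the direction was the same in 5 of 5 rats, and none passed the adjusted threshold.

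At a mean log2 CPM of at least 1, the 5 lowest side differences among named genes lower in 5 of 5 rats were those of Crtap, Stxbp2, Cdc42ep1, Tnfrsf1a and Cnn2. Of these, 2 are described. Tnfrsf1a, the receptor 1 of tumor necrosis factor, had 8.08 ± 2.69 CPM ipsilaterally and 10.1 ± 2.79 contralaterally, a log2 difference of -0.34 (SE 0.14). Crtap, needed for collagen hydroxylation, had 2.13 ± 0.907 and 2.92 ± 0.793 CPM, a log2 difference of -0.49 (SE 0.19). In both genes the within-rat differences had the same sign while the side means lay within about 1 SD of each other. In edgeR the unadjusted p was 0.0413 for Tnfrsf1a and 0.0248 for Crtap, and the adjusted p was 0.999 for each.

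No gene of surgical wound and acute injury response passed the test for a difference on the side of the craniectomy, and in edgeR no gene of any kind did. The list holds chemokines, cytokines and their feedback genes, proteases and their inhibitors, and stress and matrix genes. Of its 30 genes 25 passed the filter, and 0 had an unadjusted side p below 0.05 in edgeR, against 1.51% of all genes. At an adjusted p of 0.05 there were 0 in every fit run, against 0 over all genes, or 1 in DESeq2. These counts thus do not set the list apart from other genes. The median side difference was 0.01, with 13 members positive and 12 negative, and the confidence intervals of 15 of the 25 lay within 1 log2 unit of 0. Over all named genes tested the median was -0.04, with 656 positive and 889 negative. Names on the list come from calls that used these ipsilateral sham samples. Its sham side values are therefore not independent of how the genes were chosen. Summed over the list, CPM was between 149 and 262 ipsilaterally and between 158 and 240 contralaterally, so the sides overlapped.

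Individual wound genes had these values. Socs3, the feedback inhibitor of cytokine signalling through STAT3, had 0.633 ± 0.312 CPM ipsilaterally and 0.921 ± 0.533 contralaterally, a difference of -0.50 (log2, 95% confidence interval -1.10 to 0.09). The ipsilateral value was the lower in 5 of 5 rats, although the values were nearly equal in rat 82, at 0.559 CPM each. Hmox1, the inducible heme oxygenase gene, had 5.18 ± 1.62 and 5.57 ± 1.56 CPM, a difference of -0.11 (-0.52 to 0.30).

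The other 10 wound genes could not be bounded as tightly. Spp1, the osteopontin gene, reached 35.2 and 44.1 CPM in the ipsilateral samples of rats 84 and 94 and lay between 3.24 and 15.5 CPM in the other 8 samples. Its side difference of 0.49 had a confidence interval from -0.83 to 1.81, the widest bound upward in the list. Ccl2, the monocyte chemoattractant gene, had 3.80 CPM in the ipsilateral sample of rat 94 and between 0.541 and 1.37 in the other samples.

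The side difference in PBBI rats gave the scale. With the rat as a block, 1646 of 15973 genes (10.3%) differed between hemispheres in the 6 PBBI rats, 1067 higher and 579 lower ipsilaterally (568 genes without the block). The difference between the PBBI and the sham side difference passed in 708 of 16587 genes (4.27%), and in 54 in the fit without the block. In the wound list the median PBBI side difference was 3.18 on the log2 scale, 23 members were called, and 23 also differed from the sham side difference. Names on this list come from calls that used these samples, so these counts are not independent of how it was chosen. Socs3 differed by 3.82 in PBBI rats and Hmox1 by 3.55, and these exceeded the sham difference at an adjusted p of 0.000814 and 0.00107 in edgeR.

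**Figure D1:**
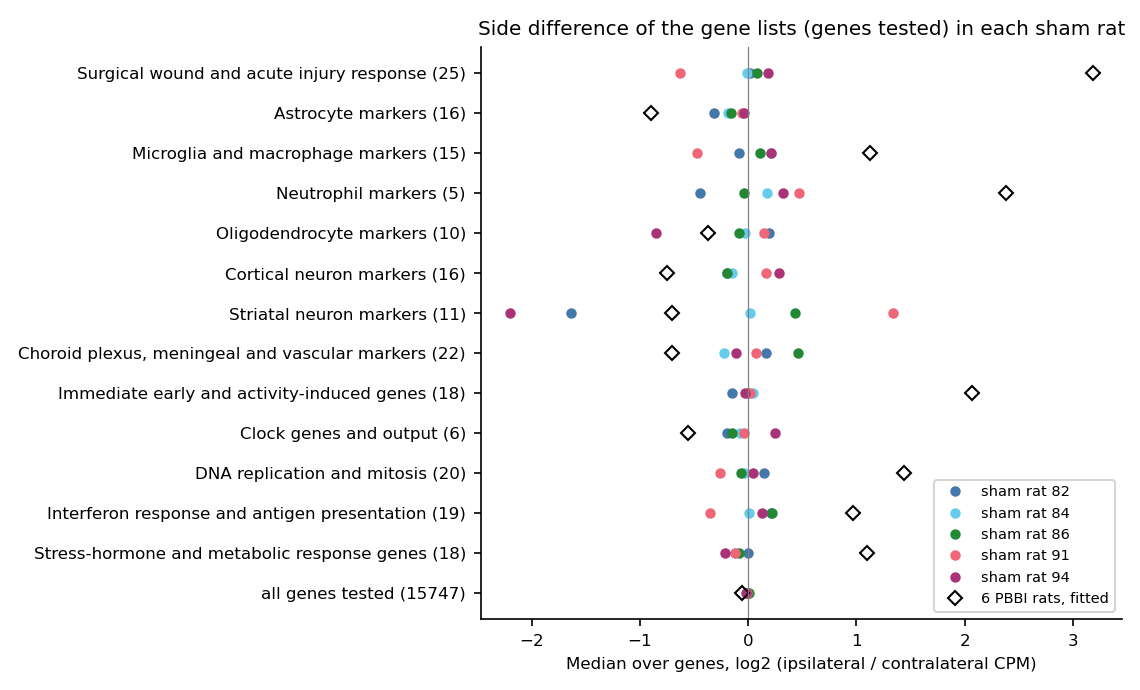
Median over the tested genes of each list (number in brackets) of the log2 ratio of ipsilateral to contralateral CPM (horizontal axis), as a point for each of the 5 sham rats, with the fitted median of the 6 PBBI rats as an open diamond. In sham rats the wound list lies between -0.63 and 0.18, far from the PBBI value of 3.18, and the striatal list is the most spread, from -2.20 to 1.34.

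Cell type markers were compared by side in the same way, and in bulk tissue fewer cells of a type and less RNA per cell cannot be told apart. Of 16 astrocyte markers 13 were lower ipsilaterally, with a median of -0.14. In edgeR 0 of the 16 had an unadjusted p below 0.05, against 1.51% of all genes. Gfap, the intermediate filament gene of reactive astrocytes, had 554 ± 220 CPM ipsilaterally and 686 ± 256 contralaterally, a difference of -0.33 (95% confidence interval -0.71 to 0.05). It was the lower side in 4 of 5 rats, and rat 94 was the exception with 865 CPM against 690. The confidence intervals of all 16 astrocyte, all 15 tested microglial and all 16 cortical neuron markers lay within 1 log2 unit of 0.

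Microglial and neutrophil markers had side medians near the background. The 15 microglial markers had a median of -0.03 and the 5 neutrophil markers that passed the filter a median of 0.11. In each list 0 members had an unadjusted p below 0.05 in edgeR, against 1.51% of all genes. The remaining 5 of the 10 neutrophil genes, among them those of the chemokine receptors Cxcr1 and Cxcr2, were below the filter. In PBBI rats the corresponding medians were 1.13 for microglia and 2.39 for neutrophils, against 0.85 over all named genes tested and -0.05 over all genes tested. Names on these lists come mostly from the study's calls of injury against sham, which used the ipsilateral sham samples. Neither these PBBI medians nor the sham side medians are therefore independent of how the genes were chosen.

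Markers of striatal neurons differed between hemispheres strongly but in opposite directions in different rats. These genes mark the spiny neurons under the frontal cortex and are weak in cortex itself. Their median side difference was -2.20 in rat 94 and -1.63 in rat 82, both lower ipsilaterally, then 0.01 in rat 84, 0.43 in rat 86 and 1.34 in rat 91. Summed over the 11 genes, CPM was 133 ipsilaterally and 573 contralaterally in rat 94, 237 and 656 in rat 82, and 433 and 270 in rat 91. The 2 remaining rats had sums between 185 and 254 on either side. The title of the contralateral sample of rat 82 carries the letters PFC, which those of the other sham samples do not, so whether its hemispheres were sampled at the same place is not known. The median of the list was -0.32 over the 5 rats, 0.02 without rat 82 and 0.18 without rat 94.

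The pattern was carried by genes of known striatal neurons. Adora2a, an adenosine receptor gene of the indirect pathway, had contralateral CPM of 119, 14.7, 24.8, 9.69 and 143 in rats 82, 84, 86, 91 and 94, and ipsilateral CPM of 27.9, 13.8, 39.2, 63.3 and 3.48. Rgs9, a regulator of G protein signalling in the same neurons, had 83.5, 10.5, 12.5, 7.24 and 76.5 contralaterally and 27.2, 9.15, 16.9, 37.2 and 7.52 ipsilaterally. Tac1, which encodes substance P in direct pathway neurons, had 113 and 103 CPM in the contralateral samples of rats 82 and 94 and between 18.1 and 59.0 in the others. Adora2a and Tac1 were picked for description after their values were seen. All 3 genes were high in the contralateral samples of rats 82 and 94 and in the ipsilateral more than the contralateral sample of rat 91.

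The directions differed between rats, and none of the 11 striatal genes had an unadjusted side p below 0.05 in edgeR, against 1.51% of all genes. Their intervals were wide: 2 of 11 lay within 1 log2 unit of 0, and that of Adora2a ran from -2.84 to 1.62 around -0.61. How much of each sample lay below the cortex is not given in the sources used here, and its part in other side differences was not tested. Adcy1, a calcium-stimulated adenylyl cyclase gene that had been placed on this list, did not follow the others: it had 163 and 99.0 CPM in rat 91 and at most 39.7 elsewhere.

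**Figure D2:**
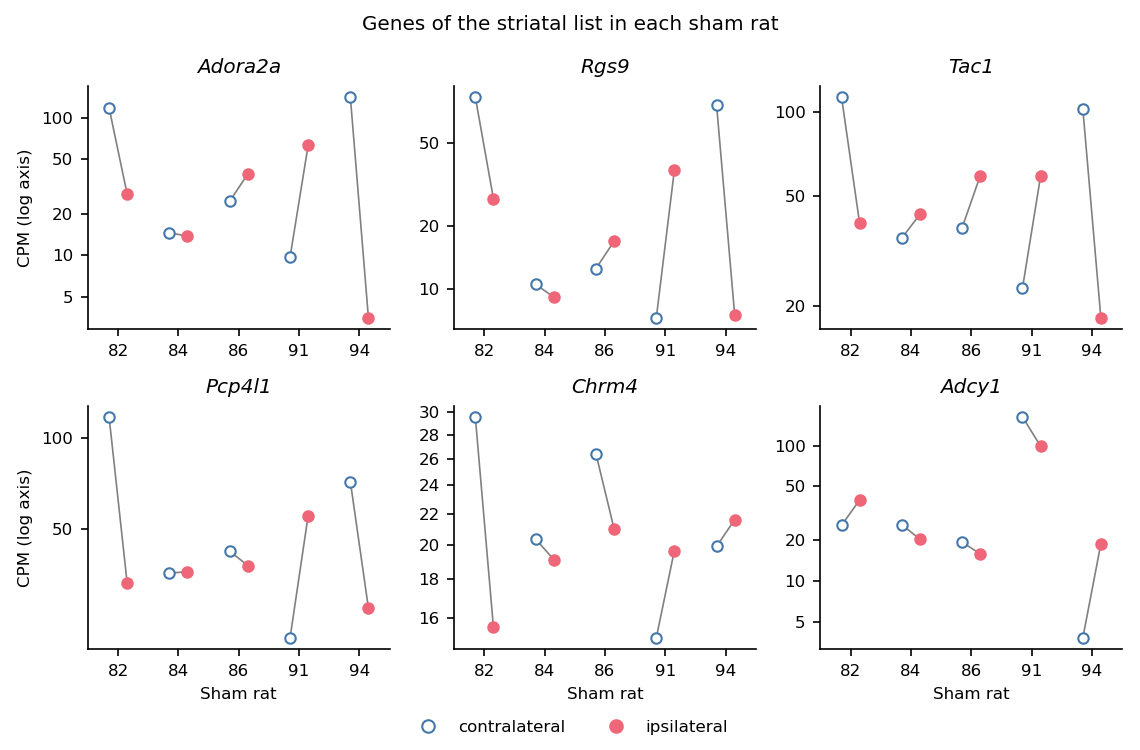
CPM (log axis) of 6 genes of the striatal list in the contralateral (open) and ipsilateral (filled) sample of each sham rat, with a line joining the hemispheres of a rat. Adora2a, Rgs9 and Tac1 are steeply lower ipsilaterally in rats 82 and 94 and higher in rat 91, while Adcy1 is highest on both sides of rat 91.

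Differences between rats were far more numerous than differences between sides. The test set the 4 rat coefficients against the spread between the hemispheres of a rat, after removal of a mean side effect, and 5527 of 15747 genes (35.1%) had an adjusted p of at most 0.05. The median range between the highest and lowest rat mean was 0.95 on the log2 scale, and 7366 genes had a range of at least 1, of which 4643 were called. The SD between rat means and the SD of the side difference within rats had nearly equal medians over genes, 0.387 and 0.390, but the latter is of a difference of samples and the former of a mean over both sides.

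The count rested on 2 animals in large part. Among the called genes, rat 91 was the highest in 2215 and the lowest in 1579, and rat 86 was the highest in 1575 and the lowest in 1855. Without rat 91 the count was 677, and without rat 86 it was 1493. Leaving out rat 82, 84 or 94 gave 6085, 4760 and 5803. All 22 samples in the same fit gave 2670.

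**Figure D3:**
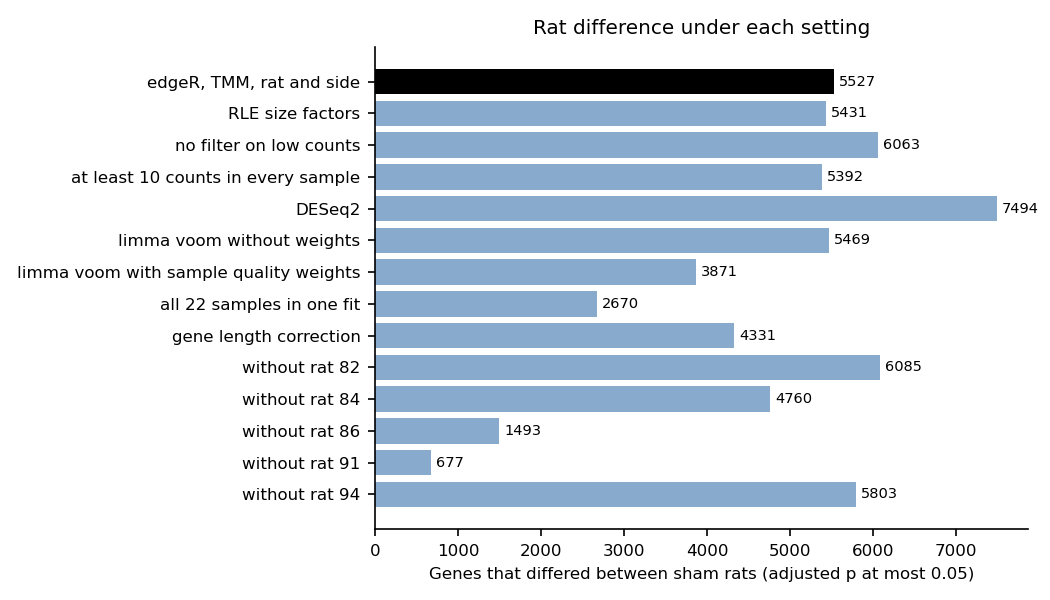
Number of genes that differed between sham rats at an adjusted p of at most 0.05 (bar length, horizontal axis) in the fit described (black) and under each alternative. The count falls from 5527 to 1493 without rat 86 and to 677 without rat 91.

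A trend with gene length moved with the rat difference. In each sample the median deviation from the gene's mean was taken for the longest and the shortest quintile of genes (at least 3949 and at most 1267 bases). The longest minus the shortest quintile was 0.80 and 0.58 (log2) in the contralateral and ipsilateral samples of rat 91, and -0.44 and -0.74 in those of rat 86. Rat 91 was thus the highest on both sides. Rat 86 was the lowest ipsilaterally, while contralaterally rat 94 was lower still, at -0.49. The share of genes called was 43.0% in the shortest quintile, 31.1% in the middle quintile and 38.5% in the longest. With this trend removed by a correction chosen after seeing the data, 4331 genes were called, of which 3606 were among the 5527.

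**Figure D4:**
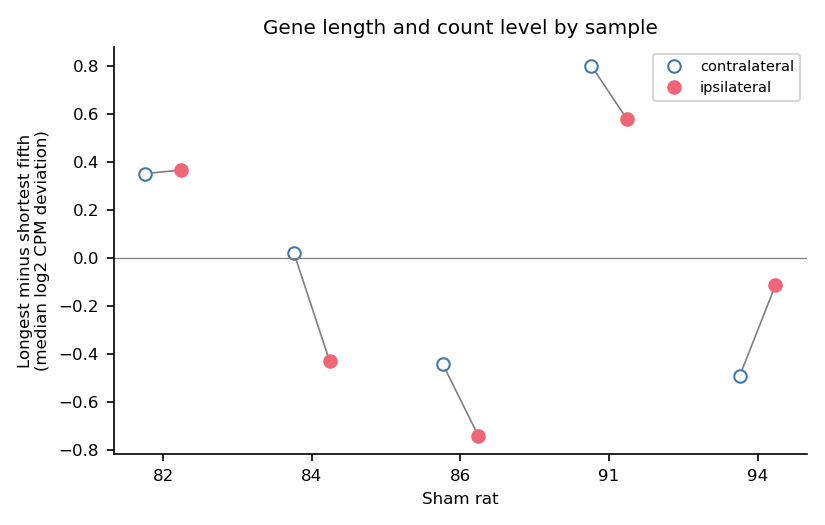
Median log2 CPM deviation of the longest quintile of genes minus that of the shortest quintile (vertical axis) for the contralateral (open) and ipsilateral (filled) sample of each sham rat. Rat 91 lies at 0.80 and 0.58, rat 86 at -0.44 and -0.74, and the hemispheres of rat 84 are apart, at 0.02 and -0.43.

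Neutrophil and acute phase genes separated rat 94 from the others on both sides. S100a9, which encodes a subunit of calprotectin, an abundant protein of neutrophils, had the smallest p of all named genes. It had 27.3 CPM contralaterally and 31.4 ipsilaterally in rat 94, then 7.47 and 5.36 in rat 82, and between 1.31 and 2.16 in the 6 samples of rats 84, 86 and 91. No sample of rats 84, 86 or 91 reached the level of rat 82, and none of rat 82 reached that of rat 94. The range between rat means was 4.09 on the log2 scale (edgeR F 93.9, adjusted p 0.000321), while the side difference was 0.11 (95% confidence interval -0.30 to 0.51).

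S100a8, the partner subunit, followed the same order. It had 12.7 and 11.9 CPM in rat 94, 4.70 and 2.27 in rat 82, and at most 1.88 in the other samples (adjusted p 0.00517 in edgeR). Lcn2, the gene of the iron-sequestering acute phase protein lipocalin 2, had 8.03 and 7.86 CPM in rat 94, 1.61 and 2.34 in rat 82, and between 0.655 and 1.05 elsewhere (adjusted p 0.00240). All 3 genes kept an adjusted p of at most 0.05 without any of the 5 rats in turn, rat 94 included, and in every other fit run.

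Not every neutrophil gene took this order. Mmp9, the gelatinase B gene that microglia and vessels also express, had 6.08 and 7.58 CPM in rat 84 and 8.93 and 6.63 in rat 86, but 2.78 and 3.48 in rat 94 (adjusted p 0.00885 in edgeR). Rats 84 and 86 were thus above the other 3 on both sides. Of the 5 neutrophil markers tested 4 differed between rats, against the 35.1% of all genes. When a rat was left out 3 or 4 were called, against 677 to 6085 over all genes. With all 22 samples in the same fit 2 were called, against 2670 of 16587 over all genes. The summed level of the whole list of 10 was between 9.34 and 18.0 CPM in rats 82, 84, 86 and 91 and was 48.2 and 54.2 in rat 94.

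Interferon-response and antigen presentation genes differed between rats in 12 of 19 tested (63.2%), against 35.1% of all genes. Interferons act through STAT and IRF factors on a short element in the promoters of their target genes, and the products restrict viruses or process and present peptides on class I and class II molecules. Rat 94 had the highest mean for 14 of the 19 genes and rat 82 the lowest for 11. Over all genes these counts were 3627 and 2852 of 15747, and over named genes 523 and 433 of 1545. The median deviation of the 19 genes from the mean of the 5 rats was 0.61 in rat 94, 0.19 in rat 84, -0.11 in rat 86, -0.23 in rat 91 and -0.47 in rat 82. Medians over all genes were between -0.02 and 0.02. Named genes leaned the same way as the list, with medians of 0.14 in rat 94 and -0.12 in rat 82. The side difference of the list had a median of 0.00, and 0 members had an unadjusted p below 0.05 in edgeR, against 1.51% of all genes. The number called was 8 without rat 94, 7 without rat 86, 6 without rat 91 and 5 in voom with sample quality weights. Over all genes these fits called 5803 of 15755, 1493 of 15770, 677 of 15744 and 3871 of 15747.

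Genes of this group were not all highest in the same rat. RT1-CE16, a class I gene of the rat major histocompatibility complex, had 11.3 and 6.77 CPM in rat 94 and between 0.576 and 1.57 in the other 8 samples. It differed between rats at an adjusted p of 0.00438 in edgeR, and at 0.489 without rat 94. Genes of this family have near-identical copies between which reads can be split, so its values are uncertain. Ifit3, an interferon-induced gene of antiviral defence, had 9.45 and 9.11 CPM in rat 84 and 5.85 and 7.97 in rat 86, but 1.68 and 3.64 in rat 94 (adjusted p 0.00721). Slfn2, a schlafen gene of leukocytes, had 11.3 and 15.4 CPM in rat 84, 8.58 and 11.2 in rat 94 and 3.74 and 4.43 in rat 82 (adjusted p 0.00825). Ifit3 and Slfn2 kept their calls without each rat in turn.

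RT1-Da and RT1-Db1 are class II genes. RT1-Da had 16.0 CPM in the ipsilateral sample of rat 94 and 3.91 in its contralateral sample, and between 2.04 and 7.29 in the other 8 samples. RT1-Db1 had 9.65 and 2.64 CPM in the same samples of rat 94. The rat difference had an adjusted p of 0.116 for RT1-Da and 0.0489 for RT1-Db1 in edgeR, the latter lost in 4 of 5 fits without a rat. Class II and osteopontin (Spp1) levels were both high in the ipsilateral sample of rat 94.

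The promoter sequences of 4 genes of this group that differed between rats are shown, as 150 bases upstream of the RefSeq start on GRCr8, because the interferon element can be searched in them. The element was searched on both strands, within 250 bases upstream, as the letters GAAA repeated after a spacer of any 2 bases. It was present in 6 of the 17 list members with a promoter sequence and in 3.41% of all 33469 promoters. A match is a description of letters and not evidence of binding. Capitals mark the match. Ifit3 lies at chr1:241527176-241527325 (plus strand) and its match starts at -44. Tap1, the peptide transporter gene, lies at chr20:4668544-4668693 (minus strand) with a match at -121. Tapbp, the tapasin gene, lies at chr20:4967878-4968027 (minus strand), where 2 overlapping matches start at -26. Ifitm3, an antiviral membrane protein gene, lies at chr1:205541759-205541908 (minus strand) with a match at -44. Tap1, Tapbp and Ifitm3 were chosen for their match after the calls were known.
Ifit3: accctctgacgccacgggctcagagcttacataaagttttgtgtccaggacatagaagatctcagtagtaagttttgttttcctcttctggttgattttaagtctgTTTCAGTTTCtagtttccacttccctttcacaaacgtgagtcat
Tap1: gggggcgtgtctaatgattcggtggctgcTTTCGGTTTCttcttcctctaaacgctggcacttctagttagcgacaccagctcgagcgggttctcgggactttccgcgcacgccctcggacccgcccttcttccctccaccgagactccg
Tapbp: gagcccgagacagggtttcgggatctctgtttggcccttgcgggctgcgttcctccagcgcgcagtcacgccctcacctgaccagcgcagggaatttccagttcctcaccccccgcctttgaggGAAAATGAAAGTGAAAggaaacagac
Ifitm3: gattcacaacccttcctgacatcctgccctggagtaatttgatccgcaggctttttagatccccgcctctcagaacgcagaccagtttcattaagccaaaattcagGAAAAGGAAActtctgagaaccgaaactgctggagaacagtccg

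The 4 genes with these promoters did not share an order of rats. Ifit3 was highest in rat 84, as above. Tap1 had 6.01 and 7.09 CPM in rat 94 and 2.95 and 2.81 in rat 82 (adjusted p 0.0331 in edgeR, lost without each of the 5 rats in turn). Tapbp had 12.9 and 11.8 CPM in rat 94 and between 4.95 and 7.73 in the other 8 samples (adjusted p 0.0216, lost without rat 84, 91 or 94). Ifitm3 had 13.4 and 12.8 CPM in rat 94 and between 4.46 and 9.14 elsewhere (adjusted p 0.0336, lost without rat 86, 91 or 94).

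Immediate early and activity-induced genes differed between rats but hardly between sides. These genes are transcribed within minutes of synaptic activity, stress or growth factor signals, and include transcription factors and feedback inhibitors. Of 18 tested, 10 (55.6%) differed between rats, against 35.1% of all genes. Their median deviation was 0.36 in rat 86 and 0.25 in rat 94, 0.12 in rat 84, and -0.34 in rat 82 and -0.39 in rat 91. Over all named genes tested the medians were -0.01, 0.14, 0.06, -0.12 and -0.07 in the same order of rats. The within-rat side difference had a median between -0.15 and 0.04 in the 5 rats. The count was 6 without rat 86, 2 without rat 91 and 1 with all 22 samples in the same fit, while the correction for gene length left it at 10.

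Atf3, a stress-induced transcription factor gene, had the widest spread among those held in every fit. It had 11.7 and 11.2 CPM in rat 94, 7.50 and 10.5 in rat 86, 4.44 and 5.15 in rat 84, 1.97 and 0.751 in rat 91, and 1.19 and 0.698 in rat 82, contralateral first. The hemispheres of rats 84, 86 and 94 were all above those of rats 82 and 91. The range between rat means was 3.59 (log2, adjusted p 0.00556 in edgeR) and the side difference -0.24 (95% confidence interval -0.83 to 0.34). Gadd45g, a growth arrest gene, had 25.8 and 25.7 CPM in rat 94, 19.6 and 25.5 in rat 86 and at most 13.2 in the other 6 samples (adjusted p 0.00741).

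Maff, a small Maf factor gene, had 4.55 and 3.10 CPM in rat 94, 4.03 and 4.93 in rat 86 and 0.570 and 0.961 in rat 91 (adjusted p 0.00923 in edgeR, and 0.131 without rat 91). Inhba, the activin subunit gene of active neurons, ran in another order, with 2.46 and 2.44 CPM in rat 82, 2.10 and 2.45 in rat 91, and 0.0683 and 0.431 in rat 94 (adjusted p 0.0179, and 0.0526 without rat 91). The rats with the higher Atf3 values thus held the lower Inhba values. The Maff promoter is shown because the cAMP-response element TGACGTCA, which is its own reverse complement, is present at -51. This element was in 2 of the 12 list members with a promoter sequence and in 1.59% of all promoters. The 150 bases lie at chr7:112792637-112792786 on GRCr8 (plus strand), with the match in capitals.
Maff: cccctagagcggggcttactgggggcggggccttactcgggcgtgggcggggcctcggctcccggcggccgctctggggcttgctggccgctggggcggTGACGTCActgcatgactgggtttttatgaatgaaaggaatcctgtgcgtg

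**Figure D5:**
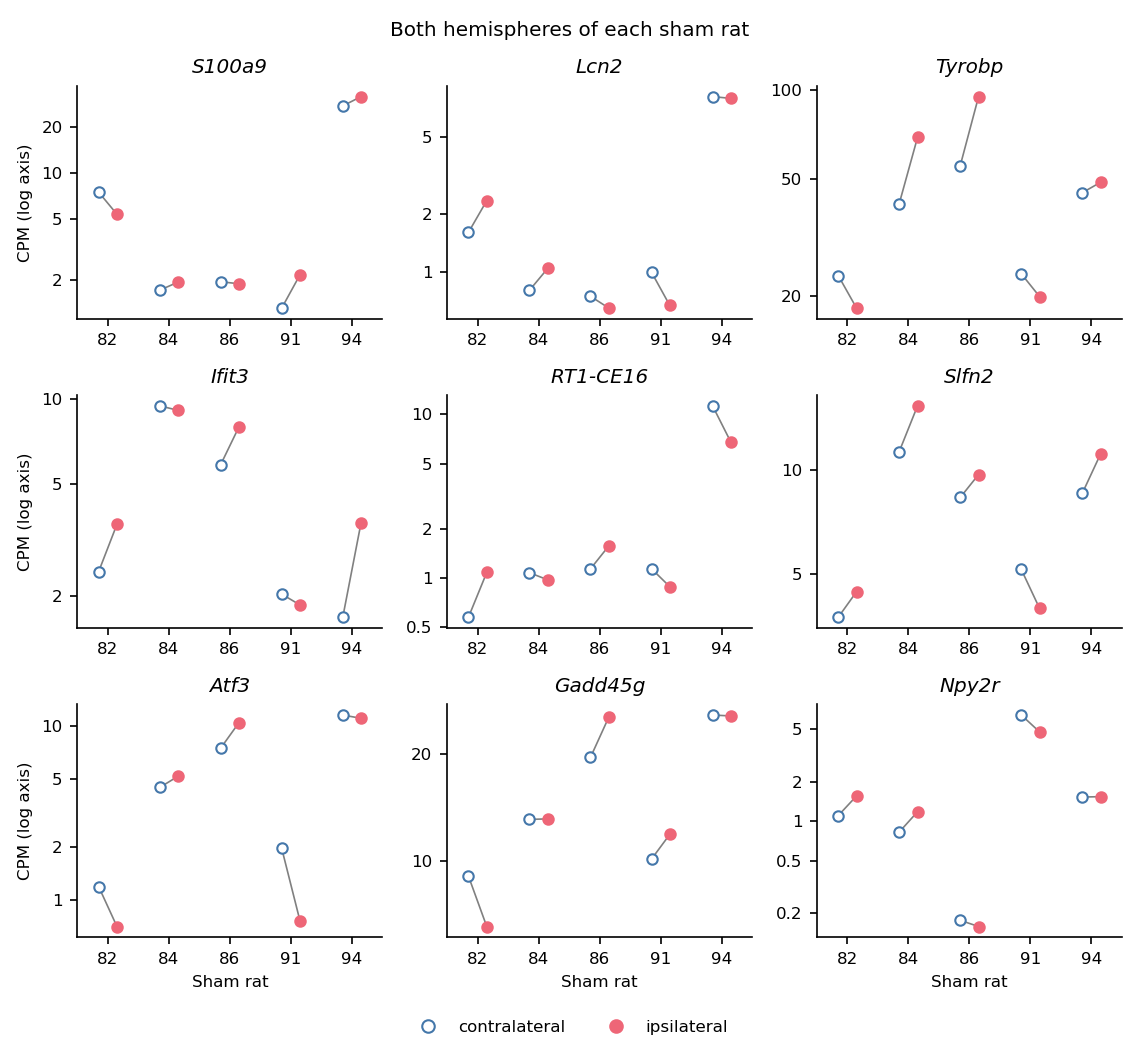
CPM (log axis) of 9 genes in the contralateral (open) and ipsilateral (filled) sample of each sham rat, with a line joining the hemispheres of a rat. S100a9, Lcn2 and RT1-CE16 are highest on both sides of rat 94, Ifit3 and Slfn2 in rat 84, and Atf3 and Gadd45g in rats 86 and 94.

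Microglial genes differed between rats in 10 of 15 tested (66.7%), against 35.1% of all genes. Without rat 91, 86 and 84 the count was 2, 4 and 5, against 677 of 15744, 1493 of 15770 and 4760 of 15761 over all genes. It was 4 in voom with sample quality weights (3871 of 15747 over all genes) and 3 with all 22 samples in the same fit (2670 of 16587). Microglia are the resident phagocytes of brain. Tyrobp, which encodes the signalling adaptor of their activating receptors, had 55.6 and 95.3 CPM in rat 86, 41.3 and 69.3 in rat 84, 44.9 and 48.7 in rat 94, 23.8 and 19.9 in rat 91 and 23.5 and 18.2 in rat 82 (adjusted p 0.0102 in edgeR, at most 0.0459 without any rat). Rats 82 and 91 were the lowest on both sides. Cyba, an oxidase subunit gene, had the same rats lowest, with 9.41 and 6.35 CPM in rat 82 and 10.5 and 7.55 in rat 91 against 12.4 to 30.3 in the others (adjusted p 0.0150 in edgeR, and 0.0526 without rat 91). Tmem119, a marker of resting microglia, was instead highest in rat 94 (52.1 and 40.4 CPM) and lay between 24.9 and 33.2 in the other 8 samples (adjusted p 0.0287, lost without rat 84, 86, 91 or 94).

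Rats 82 and 91, the lowest in Tyrobp, Cyba and Atf3, were also those with the higher level of long genes relative to short genes. The length difference of the 4 samples of these rats was between 0.35 and 0.80, and that of the other 6 between -0.74 and 0.02. Its part in the microglial and immediate early results was not tested beyond the correction. Under the correction 7 of the 15 microglial, 10 of the 18 immediate early, 11 of the 19 interferon and 3 of the 5 neutrophil genes were called. Over all genes 4331 of 15747 were called with it and 5527 without it.

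Other named genes with small rat p had varied roles. Npy2r, a neuropeptide Y receptor gene of neurons, had 6.43 and 4.77 CPM in rat 91 and 0.175 and 0.157 in rat 86, with between 0.825 and 1.55 in the remaining 6 samples (adjusted p 0.00240 in edgeR). Aox1, an aldehyde oxidase gene, had 12.1 and 10.7 CPM in rat 91, 9.38 and 8.55 in rat 94, 5.71 and 5.57 in rat 82, and between 2.12 and 2.51 in rats 84 and 86 (adjusted p 0.00240). For Npy2r, rat 91 lay above and rat 86 below all other samples on both sides, and for Aox1 both samples of rats 84 and 86 lay below the others.

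Cyr61, a matricellular gene of vessels and wounds, had 17.1 and 14.2 CPM in rat 94 and 8.83 and 7.33 in rat 91, with at most 3.80 elsewhere (adjusted p 0.00500). LOC100360856 had 117 and 128 CPM in rat 86 and between 30.6 and 60.9 elsewhere (adjusted p 0.00367 in edgeR, and 0.199 without rat 86). Unc5d, a netrin receptor gene, had 22.8 and 11.8 CPM in rat 91 and at most 7.66 elsewhere (adjusted p 0.00894, and 0.0802 without rat 91).

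None of the 6 clock genes passed the test for side or for rat. They had a median range between rats of 0.53 on the log2 scale, against 0.95 over all genes and 0.86 over all named genes tested. Arntl, the core clock activator gene, had 40.1 ± 1.73 CPM ipsilaterally and 39.5 ± 5.71 contralaterally, a side difference of 0.03 (95% confidence interval -0.24 to 0.30). Vipr2, a receptor of vasoactive intestinal peptide, had 2.95 ± 0.669 and 3.16 ± 1.15 CPM. Of the 6, 0 had an unadjusted side p below 0.05 and 0 passed the rat test in edgeR or in any other fit run. Over all genes 1.51% and 35.1% did so in edgeR. Of the 1545 named genes tested, 31 had an unadjusted side p below 0.05 and 19.7% passed the rat test. Names come mostly from calls that used these ipsilateral sham samples, so the range and the counts are not independent of how the genes were chosen. A count of 0 in 6 genes does not show that their levels were equal between rats.

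The other lists had fewer genes that differed between rats than the 35.1% of all genes. These were 0 of 10 oligodendrocyte, 1 of 11 striatal, 2 of 20 replication and mitosis, 3 of 22 choroid plexus, meningeal and vascular, 4 of 25 wound, 3 of 16 astrocyte, 4 of 16 cortical neuron and 4 of 18 metabolic and stress-hormone genes. Among all named genes tested, from which every list was drawn, 19.7% were called. Against that share the cortical neuron (25.0%) and the metabolic and stress-hormone genes (22.2%) were higher, and the others named here were lower. The striatal genes varied within rats more than between them, as described, which enlarges the spread that the rat test is set against. Without rat 91 each of these counts was 0 or 1, and without rat 86 each was between 0 and 2. Over all genes these 2 fits called 677 of 15744 and 1493 of 15770. Without rat 94, 7 wound and 4 oligodendrocyte genes were called (5803 of 15755 over all genes). DESeq2 called 3 of the 10 oligodendrocyte genes (7494 of 15747 over all genes).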

How the data were processed

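RNA was sequenced from ipsilateral and contralateral cortex of 11 rats after ribosomal RNA depletion, as stranded paired-end libraries. The authors deposited raw counts per gene, made with STAR 2.4.2a and featureCounts 1.4.3-p1 (versions per the submitters' processing notes) on the Ensembl Rnor 6.0 annotation. Counts were not normalized before deposit. Of the counts from 1 to 19 in a sham sample, between 61.6% and 66.7% were even. Whether the mates of a read pair were counted separately was not tested, so counts are not taken as numbers of molecules. Sham samples were grouped and paired by the animal number in their labels.

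Genes were filtered with filterByExpr, scaled by TMM and tested with edgeR 4.0.16 in R 4.3.3 (glmQLFit and glmQLFTest, Benjamini-Hochberg adjustment over all genes tested, threshold 0.05), with the rat as a block. The model had terms for rat and side. The rat term was tested in the same fit. CPM used a prior count of 2 only on the log2 scale. Samples of the same rat deviated together: after removal of side means the correlation within pairs was between 0.398 and 0.765, against mean correlations with other rats between -0.209 and -0.0604. The pairing comes from the animal, which gave both samples. Each rat is a separate animal, and its samples are 1 library per hemisphere.

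The deposited table gives Ensembl identifiers, and 1818 of 32545 were named from the gene name columns of the study's supplementary tables, from which no value was used. The members, the gene lists and the tests were chosen with earlier results of these data known. Named genes were the 10 with the smallest side p and the 10 with the smallest rat p, the 5 highest and 5 lowest side differences with the same direction in 5 of 5 rats at a mean log2 CPM of at least 1, the 10 with the largest range between rats at that level, up to 3 genes by side and 2 by rat from each list, 2 unnamed identifiers in each direction, and the clock and sleep genes that the study names. Of these, the text describes a part. Hmox1, Adora2a, Tac1, Mmp9, Tap1, Tapbp, Ifitm3, Inhba and Tmem119 are list members outside this rule and were chosen after their values were seen. Slc6a3 did not pass the filter. Promoters came from RefSeq (GRCr8), matched by symbol.

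Alternatives were a fit without the replicate block, RLE scaling, omission of the low-count filter or a minimum of 10 counts per sample, DESeq2 1.42.0, limma 3.58.1 voom (plain, or weighted by sample quality), a joint fit of the 22 samples of the series, omission of each rat in turn, and a gene length correction (lowess span 0.3) added after seeing the data. Confidence intervals are at 95% and come from the edgeR fit with the rat as a block. They rest on how the side difference varied over the rats, moderated across genes, and not on the spread of levels between rats.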

Additional observations from a re-analysis of the deposited data

Results flagged for a closer look

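In each sham hemisphere, a sample was marked when its gap to the nearest other of the 5 samples exceeded 0.71 of the group's range, which chance does in about 1 in 20 groups. Part of the genes were chosen for their difference between rats, so that rate is no reference for them. It was exceeded in 25 of 176 groups over 88 named genes: 12 in rat 94, 6 in rat 86, 5 in rat 91, 2 in rat 82 and 0 in rat 84.

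Rat 94 was the highest for S100a9 (31.4 CPM ipsilaterally, 27.3 contralaterally), Lcn2 (7.86 and 8.03), RT1-CE16 (6.77 and 11.3), and for S100a8 (11.9), Crtap (3.71) and Ccl2 (3.80) ipsilaterally. Contralaterally it was the highest for Vipr2 (5.19 CPM) and ENSRNOG00000020620 (10.3 CPM), and the lowest for the replication helicase gene Mcm4 (6.05 CPM).

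Rat 86 was the highest for LOC316935 (13.3 CPM ipsilaterally, 9.11 contralaterally) and LOC100360856 (128 and 117), and ipsilaterally for the smooth muscle gene Tagln (49.6 CPM) and the muscle filament gene Des (10.1 CPM). Rat 91 was the highest for Adcy1 (99.0 CPM ipsilaterally, 163 contralaterally), for Figf ipsilaterally (1.92 CPM), and contralaterally for Npy2r (6.43 CPM) and Unc5d (22.8 CPM). Rat 82 stood apart ipsilaterally for the dopamine transporter gene Slc6a3 (6.27 CPM) and for Cdc42ep1 (16.5 CPM).

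The side difference in PBBI rats differed from that in sham rats for 23 of the genes chosen by their side or rat ranking, as unnamed identifiers or as named by the study (genes taken only from a list are not counted), tested as an interaction in edgeR (adjusted p between 0.00441 and 0.0468). It was higher in PBBI rats, on the log2 scale, for Spp1 by 4.20, Cyr61 by 3.68, Atf3 by 3.48, Lcn2 by 3.40, Maff by 2.48, Aurkb by 2.41, Cnn2 by 2.17, S100a8 by 2.16, S100a9 by 1.99, Tnfrsf1a by 1.78, Igf2bp2 by 1.77, Cdc42ep1 by 1.40, Crtap by 1.25, Slfn2 by 1.22 and Stxbp2 by 1.17. The difference was negative for Ros1 (-2.83), ENSRNOG00000039649 (-1.92), LOC316935 (-1.71), Olfm4 (-1.69), Mlip (-1.39), LOC100360856 (-1.16), Aox1 (-1.12) and LOC100910577 (-1.10). The sham side difference that entered this was itself a reason for the choice of Aurkb, Igf2bp2, Crtap, Tnfrsf1a, Stxbp2, Cdc42ep1, Cnn2, Olfm4, Ros1, Mlip, LOC100910577, LOC316935 and ENSRNOG00000039649, and within its list of S100a8. The interaction passed in 708 of 16587 genes (4.27%) over all genes, and in 539 of the 1545 named genes tested in sham rats. Names come mostly from the study's calls of injury against sham. The count of 23 is therefore not independent of how genes got their names.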

How the results depend on the processing

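The sham side count was 0 in every fit run except DESeq2, which called 1 gene. Without the replicate block it was 0, with 47 genes at an unadjusted p below 0.05. The sham rat count was 2670 in a joint fit of the 22 samples, and between 677 and 6085 when a rat was left out, the lowest without rat 91 and next 1493 without rat 86. The PBBI side count was 568 without the replicate block, 3453 in DESeq2 and between 263 and 3356 when a rat was left out. The interaction count was 54 without the replicate block, 1713 in DESeq2 and between 192 and 1358 when a rat was left out. The cause of these moves was not tested. No value that had passed a threshold changed sign, but medians of lists near 0 did when a rat was left out. The striatal median of -0.32 was 0.02 without rat 82 and 0.18 without rat 94, the oligodendrocyte median of -0.11 was 0.10 without rat 94, and the microglial median of -0.03 was 0.02 without rat 82 and 0.12 without rat 91. The wound median of 0.01 was between -0.08 and -0.05 without rat 82, 84 or 94. Medians of the cortical neuron, immediate early and interferon lists, all within 0.02 of 0, also changed sign, the interferon list with RLE scaling too. So did, among others, the side differences of S100a9, Lcn2 and Npy2r, which were not called. Among the rat calls of 15 named genes, 7 values lost the threshold: LOC316935 and LOC100360856 without rat 86, RT1-CE16 without rat 94, Maff, Unc5d and Adcy1 without rat 91, and Maff with all 22 samples. Spp1 passed without rat 94 (adjusted p 0.0192). With 5 pairs, side differences below the intervals given were not detectable.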

Other observations

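Slc6a3, the dopamine transporter gene of midbrain neurons, did not pass the filter on low counts. In rat 82 its ipsilateral sample held 359 counts (6.27 CPM), against at most 0.701 CPM in the other 9 samples and 0 counts in the ipsilateral sample of rat 84 and the contralateral sample of rat 91.

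Oligodendrocyte markers had a median side difference of -0.85 (log2) in rat 94 and between -0.09 and 0.19 in the other rats. Summed over the 10 genes, CPM in rat 94 was 1001 ipsilaterally and 2054 contralaterally. Choroid plexus, meningeal and vascular markers summed to between 778 and 1547 CPM over the 10 samples, with a median side difference of 0.10 and 15 of 22 genes higher ipsilaterally.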
